A study of Artemia parthenogenetic lineage with 6 samples.

Results

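Some abundant messages of the brine shrimp cyst differed at least 2-fold between diapause and 5 h after embryonic diapause termination (EDT). These are described here. They are the gene models with a mean of at least 200 CPM (counts scaled to the library total) in the higher group, a ratio of group means of at least 2 in either direction, and libraries of the groups that did not overlap. By this rule, 120 of the 16591 models in the table were chosen, 67 lower and 53 higher at 5 h. The level limit alone was met by 1030 models, so the changing ones made up 11.7% of the abundant transcripts, with 5.15% higher and 6.50% lower at 5 h. Levels of the 6 libraries chose the models. Their difference between 0 h and 5 h is therefore given as a description, with no test.

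The cysts were wild-type Artemia parthenogenetica collected at a lake, a lineage that reproduces without males. RNA of whole cysts was sequenced at the diapause stage (ArD_0h, labelled as untreated, 3 libraries) and 5 h after diapause was broken (ArR_5h, 3 libraries). The ArR_5h cysts had been rehydrated in ice-cold artificial seawater of 30‰ salinity and incubated in it at 28 °C in constant light. The lake cysts had been dried and refrigerated to break diapause. The protocol text names both stages while the label of ArD_0h names no treatment. Whether ArD_0h cysts were dried or rehydrated is therefore not clear, and these steps and the time after EDT cannot be told apart. Since a library holds the RNA of whole embryos, fewer cells of a type and less RNA per cell cannot be told apart either. Library totals ran from 9992823 to 13505892 counts, and the lowest count of any of the 120 models in a library was 181. Library pairs of a group were not copies of each other, since replicates differed by at least 2.47 times the sampling noise (chi-square per degree of freedom). The ArR_5h libraries differed more among themselves than the ArD_0h libraries, and this is given below beside the values it touches.

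A diapausing Artemia cyst is an encysted gastrula with very low metabolism, known for storing messenger RNA and large amounts of protective proteins such as small heat shock proteins and the ferritin-like artemin. When diapause ends and water, warmth and oxygen return, respiration, transcription and translation start again, and the embryo develops towards the nauplius larva at first without cell division. The gene models carry identifiers of the Artemia franciscana genome (evm.TU followed by a contig and a number) and no gene names. Functions are therefore given only where the study annotates a model in the part of its annotation read here. A model given without a function may still be annotated by the study. The remaining models have no such identifier, are called non-evm models here and are described by their length.

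**Figure D1:**
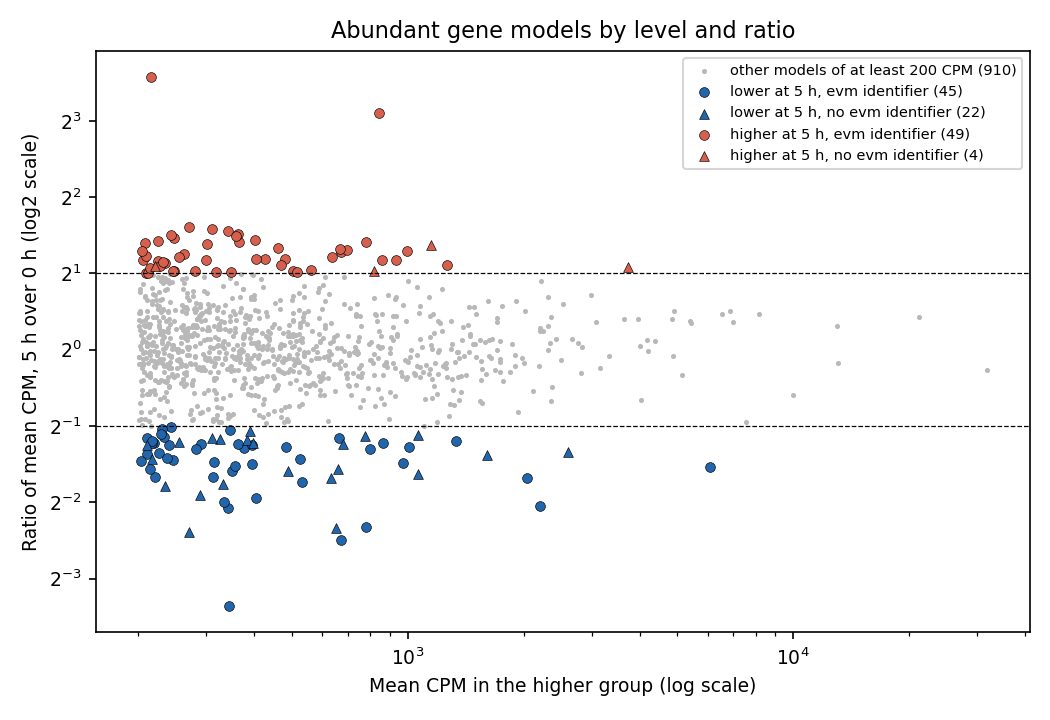
Each point is a gene model with at least 200 mean CPM in the higher group, placed by that level (x axis, log scale) and by the ratio of mean CPM at 5 h to that at 0 h (y axis, log2 scale), with dashed lines at the ratio limits. Circles are models with an evm.TU identifier (joined ones included) and triangles are non-evm models. The 67 blue and 53 red points are the changing models, and most lie close to the limits, with ratios in the direction of change between 2.01 and 11.9.

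Together, the 67 models lower at 5 h held 4.17%, 4.19% and 4.13% of all counts in the ArD_0h libraries but 1.52%, 1.63% and 1.32% in the ArR_5h libraries. This was a mean of 4.16% ± 0.0283 against 1.49% ± 0.157 (SD, n = 3), or 2.79-fold lower. The 53 models higher at 5 h held 1.12%, 1.11% and 1.104% of counts at 0 h and 2.67%, 2.64% and 2.60% at 5 h, 2.37-fold higher. The first set lost 2.67 percentage points and the second gained 1.52 percentage points. Since the rule chose each set by its change, the direction of both sums was fixed beforehand. Their sizes depend on the limits and on the number of models chosen, so loss and gain are not compared. The shares hardly depended on a single abundant transcript. Without its most abundant model, the first set went from 3.55% to 1.28% and the second from 0.935% to 2.26%.

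**Figure D2:**
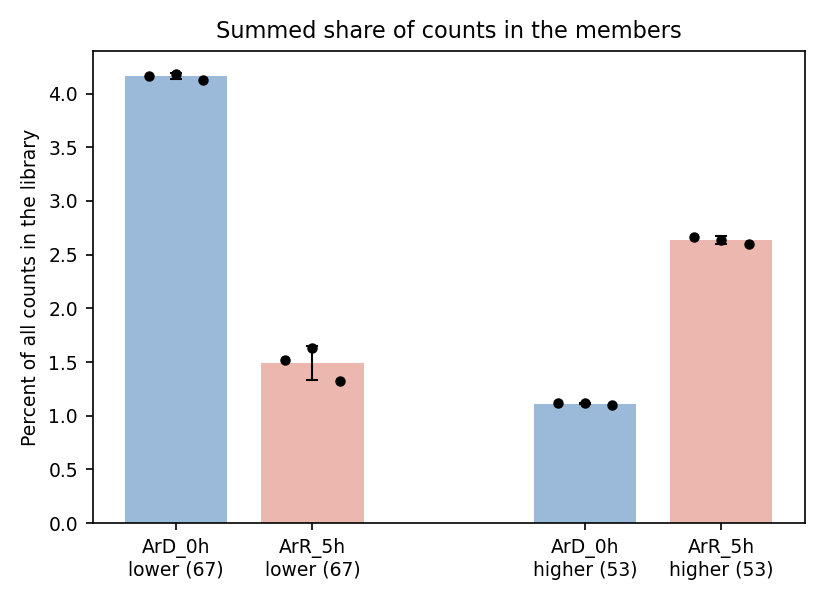
Bars give the mean percent of all counts in a library that fell on the 67 models lower at 5 h and on the 53 models higher at 5 h, for ArD_0h (blue) and ArR_5h (red), with the SD of 3 libraries as error bars and each library as a point. The first share went from 4.16% to 1.49% and the second from 1.11% to 2.64%, with the largest spread in the first set at 5 h.

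The fold differences were mostly moderate. The median was 2.57-fold among the models lower at 5 h and 2.29-fold among those higher. A difference of at least 3-fold was reached by 19 of the 67 lower and 3 of the 53 higher models, and at least 4-fold by 7 and 2. For reference, edgeR (limits of 0.05 for the adjusted p and 1 for the size of the log2 fold change) called 25.0% of the 11959 tested models, 14.3% up-regulated and 10.7% down-regulated, and 112 of the 120 models were among them. Of all tested models, 66.7% had groups that did not overlap, and 78.2% of the 1030 abundant ones. As the rule used the same contrast, nothing is read from these counts. The 8 models not called were all higher at 5 h with ratios just over 2, and their log2 fold changes by edgeR, the lowest of them 0.97, were all under 1. Without the scaling factors of edgeR, all 120 were called.

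The most abundant model lower at 5 h was evm.TU.ctg664.5, of 798 bases. It had 6046, 5983 and 6229.7 CPM in ArD_0h replicates 1, 2 and 3 and 2049, 2062 and 2177 CPM in those of ArR_5h. Its ArR_5h libraries were close to each other, and all lay far below the ArD_0h libraries. The mean went from 6086 ± 128 to 2096 ± 70.4 CPM (SD, n = 3), 2.90-fold lower. The edgeR estimate was −1.56 ± 0.09 (log2, SE). Relative to its length it was among the leading messages of the diapause cyst, at rank 5 of all models by FPKM, a level that takes length into account, at 0 h and rank 29 at 5 h. This model alone held 0.609% of all counts at 0 h and 0.210% at 5 h. The most abundant model of the table, evm.TU.ctg664.10, has a number on the same contig and a similar length of 762 bases, yet it was at 31917 ± 293 CPM at 0 h and 26606 ± 3168 CPM at 5 h.

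Next in level was a non-evm model of only 343 bases, with 2782, 2535 and 2510.2 CPM in ArD_0h replicates 1, 2 and 3 and 1069.6, 1072 and 959 CPM in those of ArR_5h. For its length it was as abundant as evm.TU.ctg664.5 at 0 h (7542 against 7564 FPKM) and ranked 6 at 0 h and 23 at 5 h. The model evm.TU.ctg1427.4, of 675 bases, showed 2195, 2284 and 2121 CPM at 0 h and 545, 606 and 451 CPM at 5 h. Its mean went from 2200.2 ± 81.5 to 534 ± 78.1 CPM (SD, n = 3), 4.12-fold lower, and its rank by FPKM from 20 to 163. A further abundant transcript, evm.TU.ctg77.55, stood at 2067, 2081 and 1956 CPM at 0 h and 663, 805 and 429.5 CPM at 5 h. Here the ArR_5h libraries were apart from each other, with replicate 2 well above replicate 3, and all were still far below 0 h. The mean of evm.TU.ctg77.55 went from 2034 ± 68.6 to 632 ± 189 CPM (SD, n = 3), 3.22-fold lower.

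The other evm models among the 10 most abundant of the lower set differed by 2.29-fold to 2.80-fold, apart from a pair with larger differences. The value of evm.TU.ctg49.19 was 1293, 1349 and 1354 CPM at 0 h and 607, 579.5 and 562 CPM at 5 h, and that of evm.TU.ctg29.14 was 1030.3, 1031 and 966 CPM at 0 h and 439, 466 and 350.5 CPM at 5 h. In evm.TU.ctg210.50 the libraries held 945, 1003 and 973 CPM at 0 h and 349.9, 357 and 336 CPM at 5 h, a tight set at each time. Its ratio, 2.80-fold lower, thus hardly depended on the library chosen. Counts of evm.TU.ctg1160.2 gave 806, 774 and 820.2 CPM at 0 h and 346, 322 and 303 CPM at 5 h, and those of evm.TU.ctg30.67 gave 899, 867 and 817 CPM at 0 h and 384, 448 and 279 CPM at 5 h. The pair with larger differences was evm.TU.ctg144.18 and evm.TU.ctg129.1. The first had 774, 781 and 786 CPM at 0 h and 161, 199.6 and 109 CPM at 5 h, 4.98-fold lower in the mean, and the second 678, 691 and 646 CPM at 0 h and 131, 149 and 77.8 CPM at 5 h, 5.64-fold lower. In both of these, ArR_5h replicate 3 was the lowest library and replicate 2 the highest.

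The largest relative difference of the lower set belonged to evm.TU.ctg1621.12, a model of 2289 bases. It had 284, 362 and 383 CPM in ArD_0h replicates 1, 2 and 3 and 33.2, 28.4 and 38.8 CPM in those of ArR_5h. Replicate 1 of ArD_0h was below the other libraries of its group, and still far above every ArR_5h library. The mean went from 343 ± 51.9 to 33.5 ± 5.17 CPM (SD, n = 3), 10.3-fold lower. The edgeR estimate was −3.38 ± 0.16 (log2, SE). Together with evm.TU.ctg990.3, of 258 bases, this model had the widest spread in diapause, with coefficients of variation (CV, SD over mean) of 15.1% and 20.1% against a median of 3.28% in the lower set. In evm.TU.ctg990.3 too, which was picked for its spread after the values were seen, ArD_0h replicate 1 was the low library, at 307, 462 and 411 CPM at 0 h and 139, 150.4 and 129.9 CPM at 5 h.

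After evm.TU.ctg1621.12 and evm.TU.ctg129.1, the largest differences were those of a non-evm model of 1305 bases, 5.23-fold lower with 272, 268 and 274 CPM at 0 h and 53.1, 56.5 and 45.9 CPM at 5 h, and of a non-evm model of 1815 bases, 5.03-fold lower with 675, 643 and 639 CPM at 0 h and 129, 165 and 95.7 CPM at 5 h. The evm models evm.TU.ctg292.18, evm.TU.ctg5856.1 and evm.TU.ctg1045.3 were 4.21-fold, 3.97-fold and 3.85-fold lower, and evm.TU.ctg115.42 and evm.TU.ctg54.8 were 3.33-fold and 3.17-fold lower. Of these, evm.TU.ctg1045.3 is a long model of 4730 bases with 418, 399.8 and 393 CPM at 0 h and 103, 135 and 76.4 CPM at 5 h, and evm.TU.ctg115.42 a short model of 654 bases with 507, 547 and 540.4 CPM at 0 h and 162, 174 and 143 CPM at 5 h. No model of the lower set disappeared from the libraries by 5 h, since the lowest mean was 33.5 CPM.

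**Figure D3:**
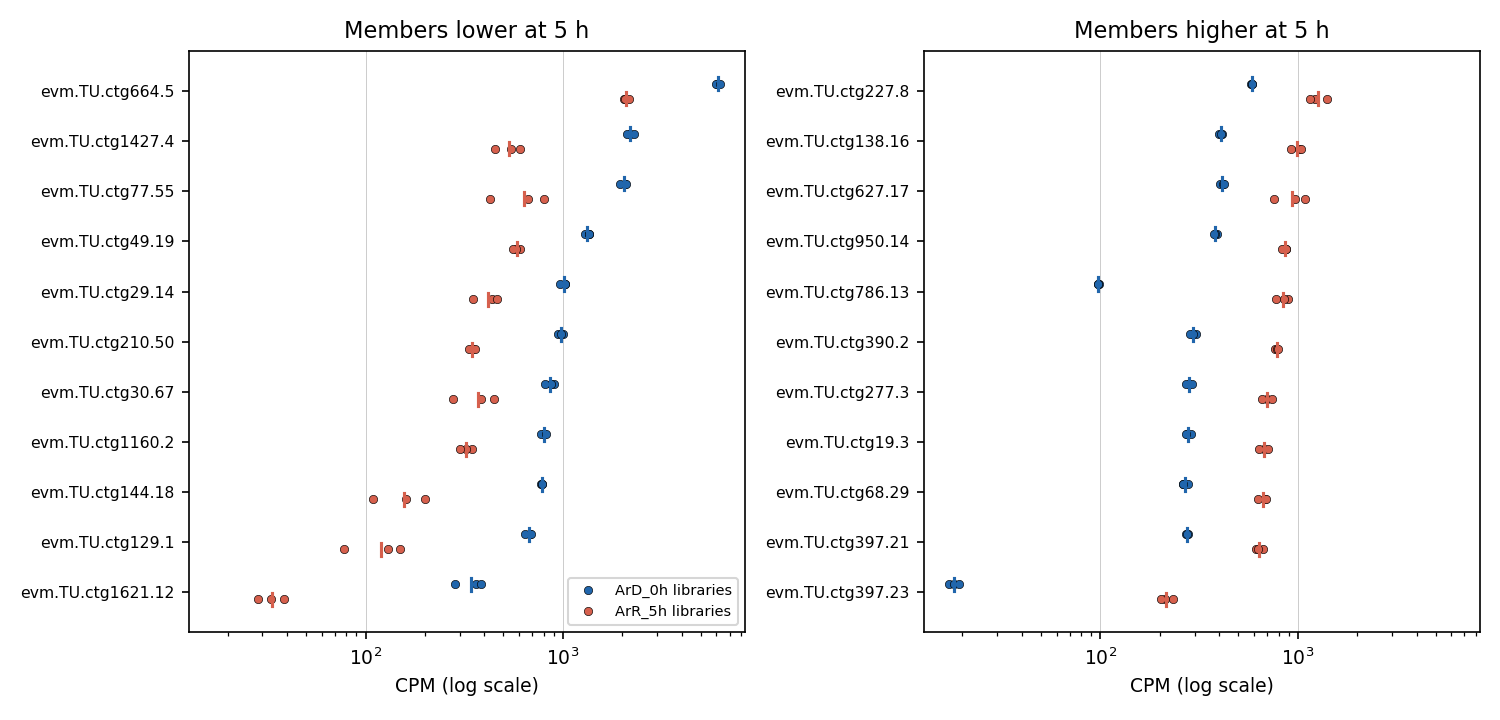
CPM (log scale) of each library for the 10 most abundant evm models lower at 5 h and evm.TU.ctg1621.12 (left), and for the 10 most abundant evm models higher at 5 h and evm.TU.ctg397.23 (right). Blue points are the 3 ArD_0h libraries, red points the 3 ArR_5h libraries and the short vertical lines their means. Blue points nearly coincide except in evm.TU.ctg1621.12, while red points are spread in evm.TU.ctg77.55, evm.TU.ctg144.18 and evm.TU.ctg129.1 and close together in evm.TU.ctg664.5.

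Among the 53 models higher at 5 h, the most abundant was a non-evm model of 14193 bases, the longest of all 120, with 1656, 1816 and 1825 CPM in ArD_0h replicates 1, 2 and 3 and 3557, 3245 and 4386 CPM in those of ArR_5h. Replicate 3 was its highest library at 5 h, and the mean went from 1766 ± 94.9 to 3729 ± 589.8 CPM (SD, n = 3), 2.11-fold higher. The most abundant evm model, evm.TU.ctg227.8, had 581, 584 and 587 CPM at 0 h and 1228, 1152 and 1405 CPM at 5 h, 2.16-fold higher. The study annotates it with the core complex of RNA polymerase II, the enzyme that makes messenger RNA, and with G-protein-coupled receptor signalling. It is a long model of 6115 bases. Beside it stood evm.TU.ctg138.16, of 4149 bases, annotated with RNA polymerase activity and with the myosin complex. Its libraries held 412, 399 and 408 CPM at 0 h and 1017, 926 and 1037 CPM at 5 h, 2.44-fold higher. The signal transduction and zinc ion binding model evm.TU.ctg627.17 had 404, 417 and 425 CPM at 0 h and 965, 1084 and 755 CPM at 5 h, with replicate 3 as the lowest library at 5 h.

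A pair of models stood out by the size of the difference. The model evm.TU.ctg786.13, of 9951 bases, had 98.8, 97.6 and 96.8 CPM in ArD_0h replicates 1, 2 and 3 and 898, 849 and 773 CPM in those of ArR_5h. All ArD_0h libraries were close to each other and all ArR_5h libraries far above. The mean went from 97.7 ± 0.982 to 839.8 ± 63.01 CPM (SD, n = 3), 8.59-fold higher. The edgeR estimate was 3.07 ± 0.07 (log2, SE). Its annotation in the study includes the Mediator complex, which links transcription factors to RNA polymerase II, together with terms of viral and peptidase function. The other, evm.TU.ctg397.23, of 3002 bases, was scarce in diapause and abundant at 5 h, with 17.1, 18.2 and 19.3 CPM in ArD_0h replicates 1, 2 and 3 and 232, 214 and 202 CPM in those of ArR_5h. It had the largest ratio of all 120 models, 11.9-fold higher, from 18.2 ± 1.07 to 216 ± 15.2 CPM (SD, n = 3). The edgeR estimate was 3.54 ± 0.09 (log2, SE). No annotation of it was found in the sources used here.

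Behind this pair the ratios dropped to 3.04 and less. The largest of these were evm.TU.ctg122.33 with 87.1, 96.2 and 83.2 CPM at 0 h and 277, 339 and 195 CPM at 5 h and evm.TU.ctg871.5 with 107, 104 and 98.8 CPM at 0 h and 333, 294 and 302 CPM at 5 h. They differed in spread, since the ArR_5h libraries of the first ran from 195 to 339 CPM and those of the second stayed together. Ratios of evm.TU.ctg360.16, the joined model evm.TU.ctg6265.1_evm.TU.ctg6265.2, evm.TU.ctg339.10, evm.TU.ctg1345.2, evm.TU.ctg222.10 and evm.TU.ctg1116.1 lay between 2.71 and 2.95. Of the abundant models not yet given, evm.TU.ctg277.3, evm.TU.ctg19.3, evm.TU.ctg68.29 and evm.TU.ctg397.21 went from 282, 278, 267 and 275 CPM to 696, 673, 669 and 636 CPM in the mean, 2.31-fold to 2.50-fold higher.

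The study gives Gene Ontology terms for models whose RNA and chromatin accessibility changed alike, at the start of its time course and in its later step. Only 567 models of the first of these lists, with some terms cut off, could be read, and the later list was not used here. The choice of the models read thus rests partly on the ArD_0h libraries used here. Of the 567 models, 105 were abundant, 14 were among the models higher at 5 h and 1 among those lower. Since the table was chosen by change, these counts say nothing independent about direction. By words in their terms, 6 models of the higher set belonged to transcription or DNA binding, of 20 abundant models read in that group, the largest group. The counts were 2 of 4 for translation or ribosome, 2 of 4 for signal transduction or receptors, 2 of 11 for oxidation-reduction, 1 of 6 for proteolysis, 1 of 11 for carbohydrates or chitin, 1 of 5 for the cytoskeleton and 1 of 6 for RNA binding or processing. A model was counted in every group whose words its terms held, and no enrichment was tested. The groups of transmembrane transport, DNA replication or cell cycle and lipids held 4, 4 and 6 abundant models and none of the 120. Those of protein folding or stress and of chromatin held no abundant model, so none could be chosen.

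Over all levels, edgeR called 224 of the 566 tested models of that table up-regulated and 10 down-regulated at 5 h, against 14.3% and 10.7% of all tested models. The table was chosen by change from the same ArD_0h libraries, and the study reports more rising than falling genes there. The direction of these counts and of those by group below is therefore not independent, and nothing is read from it. In the group of transcription or DNA binding, 33 of 81 were up-regulated and none down-regulated. For translation or ribosome the counts were 5 and 0 of 10, for signal transduction or receptors 26 and 0 of 51, and for RNA binding or processing 9 and 0 of 16. For the cytoskeleton they were 13 and 0 of 26, for proteolysis 10 and 0 of 26, for oxidation-reduction 11 and 1 of 35, and for carbohydrates or chitin 7 and 1 of 25. The groups without an abundant changing model gave 11 and 2 of 30 for transmembrane transport, 6 and 0 of 15 for DNA replication or cell cycle, 4 and 1 of 13 for lipids, 3 and 0 of 5 for chromatin and 1 and 1 of 6 for protein folding or stress.

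Ribosome production was represented by evm.TU.ctg950.14, annotated with the processing of ribosomal RNA and the small-subunit processome, the particle in which the small ribosomal subunit is assembled. It had 391, 381 and 375 CPM at 0 h and 871, 875 and 834 CPM at 5 h, 2.25-fold higher. The ribosomal model evm.TU.ctg390.2, a structural constituent of the ribosome by its terms, had 306, 294 and 283 CPM at 0 h and 766, 782 and 795 CPM at 5 h, 2.65-fold higher with hardly any spread at 5 h. Among the DNA-binding and regulatory models, evm.TU.ctg525.3 had 181, 181 and 185 CPM at 0 h and 463, 451 and 466 CPM at 5 h. Annotated with transcription factor binding, evm.TU.ctg1345.4 had 96.1, 102 and 103 CPM at 0 h and 249, 250.1 and 176 CPM at 5 h, with replicate 3 the lowest library at 5 h but still above 0 h. The protein kinase model evm.TU.ctg9.29, whose kind of enzyme attaches phosphate groups to proteins, was at 87.1, 84.9 and 80.9 CPM at 0 h and 228, 230.2 and 218 CPM at 5 h.

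The metabolic models of the higher set lay near the ratio limit, as did much of that set, whose median was 2.29-fold. An enzyme of phenylalanine breakdown by its terms, evm.TU.ctg1103.1, had 95.9, 92.1 and 84.3 CPM at 0 h and 215, 232 and 169 CPM at 5 h, 2.26-fold higher. The steroid biosynthesis model evm.TU.ctg997.1 had 258, 255 and 228 CPM at 0 h and 506, 504 and 500.03 CPM at 5 h, 2.04-fold higher, and the carbohydrate metabolism model evm.TU.ctg700.3 had 145, 134 and 132 CPM at 0 h and 293, 261 and 286 CPM at 5 h, 2.05-fold higher. Of these, evm.TU.ctg997.1 was among the 8 not called by edgeR. No term was given for evm.TU.ctg46.35 (2.29-fold higher) and evm.TU.ctg770.11 (2.64-fold higher). The latter is the shortest model of the higher set, with 555 bases, and reached 369.5 FPKM at 5 h. From the lower set, the part of the table that was read held evm.TU.ctg308.16, a membrane model with glycosyl transferase activity, at 216, 199.9 and 217 CPM at 0 h and 97.1, 117 and 70.4 CPM at 5 h, 2.22-fold lower.

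Of the 21 models that the study names for signalling, evm.TU.ctg25.48 was the only abundant changing one. The study lists it among its candidates for G-protein-coupled receptors, membrane proteins that pass outside signals to G proteins, although none of its structure tools predicted a membrane helix. It had 529.8, 526 and 518 CPM in ArD_0h replicates 1, 2 and 3 and 181, 281 and 119 CPM in those of ArR_5h. The ArD_0h libraries were nearly equal, whereas ArR_5h replicate 2 was far above replicate 3, a CV of 1.15% against 42.2%. A single other of the 21 was abundant without meeting the ratio limit, and 2 of the 21 did not enter the edgeR test.

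The libraries of 5 h did not show the change to the same degree, and the rule did not use their order. In the lower set, ArR_5h replicate 3 was the lowest of its group in 58 of 67 models (86.6%) and replicate 2 the highest in 52. Replicate 3 was thus farthest from the diapause level, and its summed share of 1.32% was below the 1.63% of replicate 2. Among the other 910 abundant models, replicate 3 was the lowest in 41.4% and replicate 2 in 52.6%. In the 456 of these with a lower mean at 5 h, replicate 3 was the lowest in 51.1%. The median ratio of replicate 2 to replicate 3 was 1.42 in the lower set, 1.04 in the higher set and 0.965 in the other abundant models. Part of this depends on scaling. The factors of edgeR (TMM) lower replicate 2 and raise replicate 3 in all sets alike. With them, replicate 3 was the lowest in 48 of 67 models of the lower set (71.6%). It was the lowest in 209 of the 910 other abundant models (23.0%). The median ratio of replicate 2 to replicate 3 was then 1.28 in the lower set, 0.939 in the higher set and 0.874 in the others.

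The higher set did not mirror the lower one. With library totals, replicate 3 was the lowest in 28 of 53 models, nearest to diapause in these, and with TMM factors in 18, while replicate 2 was then the lowest in 33. Models of the 2 sets with a wide spread at 5 h followed a common order in either direction. A CV over 20% was found in 32 models of the lower set, 7 of the higher set and 51 of the 910 others. Of these 51, 22 were among the 87 models with ratios from 0.5 to 0.67, so wide spread was not particular to the lower set. The order of the libraries in the 51 was not counted. In all 32 and all 7, replicate 3 was the lowest and replicate 2 the highest library, under either scaling. The median of the log2 ratio of replicate 2 to replicate 3 was 0.87 in the 32 models and 0.79 in the 7. Replicate 3 thus lay farthest from 0 h in these models of the lower set and nearest to 0 h in those of the higher set.

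The widest spread was that of evm.TU.ctg268.3, with 280.5, 289.98 and 276 CPM at 0 h and 112, 168 and 62.8 CPM at 5 h and a CV of 46.04% at 5 h. It was followed by evm.TU.ctg25.48, evm.TU.ctg71.7 (146, 219.96 and 95.3 CPM at 5 h), evm.TU.ctg292.18 (86.2, 110.3 and 47.1 CPM) and evm.TU.ctg30.24 (71.4, 93.5 and 44.2 CPM). In the higher set, evm.TU.ctg222.10 had 94.9, 90.3 and 84.9 CPM at 0 h and 249, 329 and 166 CPM at 5 h, a CV of 32.95%, and evm.TU.ctg339.10 had 81.8, 93.4 and 81.2 CPM at 0 h and 253, 297 and 178 CPM at 5 h. In contrast, the 358, 369 and 362 CPM of the joined model evm.TU.ctg6265.1_evm.TU.ctg6265.2 nearly coincided. The diapause libraries were closer together, with a median CV of 3.28% in the lower and 3.39% in the higher set, against 17.4% and 6.77% at 5 h. For the other abundant models these medians were 2.74% at 0 h and 6.81% at 5 h. In those with ratios from 0.5 to 0.67 they were 3.07% and 10.1%.

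**Figure D4:**
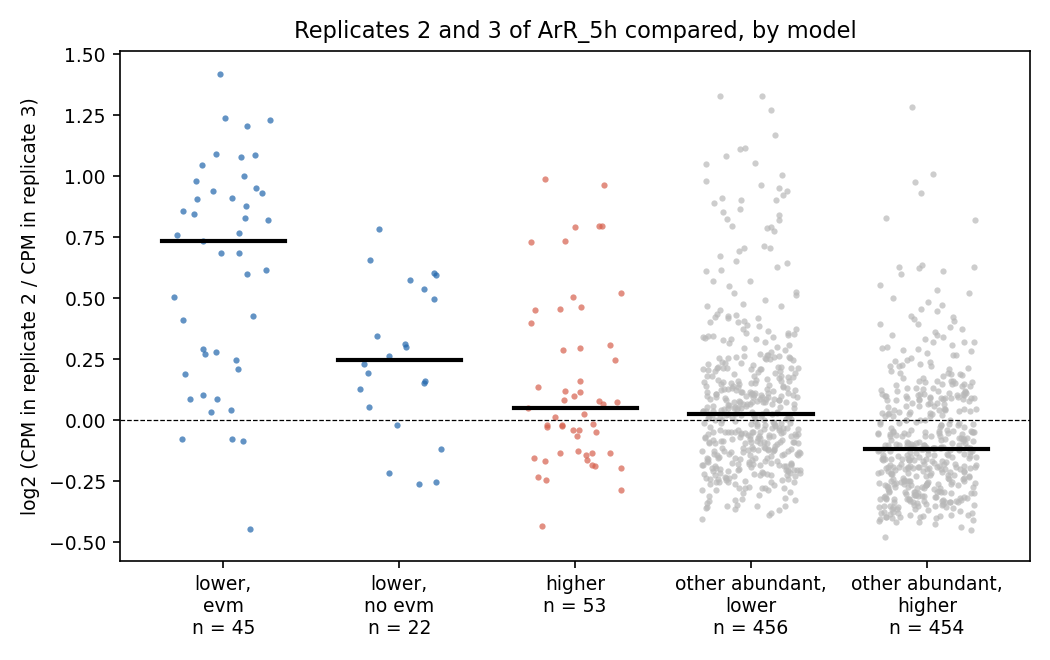
Each point is an abundant model, placed by the log2 ratio of its CPM in ArR_5h replicate 2 to that in replicate 3, with a black line at the median of each set. The evm models of the lower set (joined ones included) have a median of 0.74 and its non-evm models one of 0.25, against 0.05 in the higher set, 0.02 in the other abundant models with a lower and −0.12 in those with a higher mean at 5 h.

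The lower set was not uniform in this respect. Its 45 evm and joined models had a median CV of 25.3% at 5 h, and its 22 non-evm models one of 10.7%. The median of the log2 ratio of replicate 2 to replicate 3 was 0.74 and 0.25. For example, the 1593-base non-evm model with 664, 698 and 676 CPM at 0 h and 289.6, 287 and 291 CPM at 5 h had the smallest spread at 5 h of the set, with a CV of 0.673%. Abundance did not fix the spread either, as evm.TU.ctg664.5 had a CV of 3.36% and its highest ArR_5h library was replicate 3.

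The sets differed in the length of their models. The rule did not use length itself, but its level limit in CPM is not corrected for length. Lengths were worked out from counts and FPKM values. The median was 4053 bases in the higher set (quartiles 2562 and 6029) and 1407 bases in the lower set (quartiles 952 and 2150), against 1497 bases in the other 910 abundant models. Of the higher set, 37 of 53 models were longer than 3000 bases and 4 were shorter than 1500 bases, and of the lower set 10 and 36 of 67. The lower set was close in median length to the abundant models in general, whereas the higher set was longer.

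Among abundant models that did not meet the limit, median length increased with the ratio from 0.67 upward. It was 1347.5 bases where the mean at 5 h was 0.83 to 1.2 times that at 0 h, 2015.5 bases at 1.2 to 1.5 times and 2522 bases at 1.5 to 2 times. At ratios from 0.67 to 0.83 it was 1024.5 bases and from 0.5 to 0.67 it was 1330 bases. When the 1030 models were divided by length into 5 classes of nearly equal size, 37 of the 53 models of the higher set lay in the longest class and 1 in the shortest, and 10 and 14 of the lower set. The median log2 ratio of 5 h to 0 h over all abundant models went from −0.25 in the shortest class to 0.40 in the longest. The ArR_5h libraries also differed with length, as the median log2 ratio of replicate 2 to replicate 3 was −0.09 in the shortest class and 0.16 in the longest, whereas that of ArD_0h replicates 2 and 3 stayed between −0.01 and 0.01. The part of such library differences in the lengths of the sets was not tested.

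**Figure D5:**
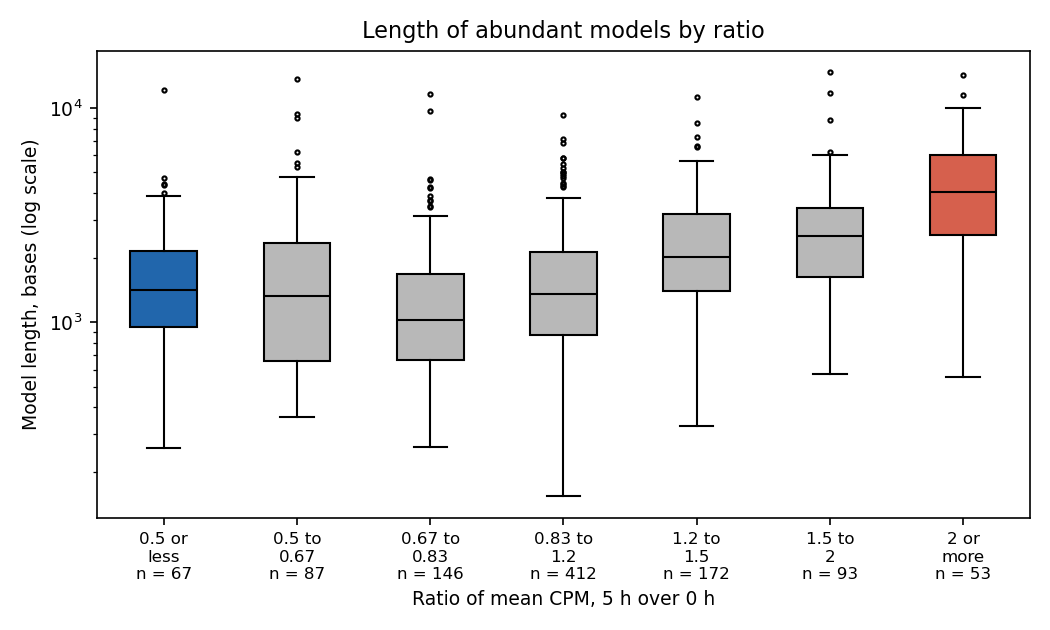
Model length in bases (log scale) of the 1030 abundant models by the ratio of mean CPM at 5 h to that at 0 h, as boxes from the lower to the upper quartile with the median as a line, whiskers to the last model within 1.5 box lengths and dots for models beyond. The 67 models lower at 5 h (blue) have a median of 1407 bases and the 53 models higher at 5 h (red) one of 4053 bases.

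The length of the higher set depended on how abundance was set. With a limit of at least 100 FPKM in place of 200 CPM, an alternative chosen after seeing the data, 33 models were higher with a median length of 1930 bases and 95 were lower with one of 1050 bases, against 979 bases for all 1503 models at that level. The higher models were again the longer ones, by less than under the CPM limit. Relative to length, the sets were far apart in abundance at 0 h. This gap is partly set by the rule, since models of the higher set had to reach the level limit only at 5 h. The lower set had a median of 269 FPKM at 0 h and 96.3 FPKM at 5 h, and the higher set 34.7 FPKM and 88.1 FPKM, so that their medians at 5 h were alike. Among models of lower level, called models differed less in length by direction. At 50 to 200 CPM in the higher group, up-regulated models had a median of 2336 bases and down-regulated models one of 2123.5 bases. At 20 to 50 CPM these were 1801 and 2110.5 bases. Models not called had medians of 1618 and 1402 bases at these levels, so called models of both directions were longer there.

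Non-evm models were unevenly divided. They made up 22 of the 67 models of the lower set (32.8%) and 4 of the 53 of the higher set (7.55%), against 56 of the other 910 abundant models (6.15%). In the whole table, at any level, 3453 of the 16591 models were non-evm models. Their share was 18.4% at ratios from 0.5 to 0.67 and 3.64% at ratios from 0.83 to 1.2. In the lower set the non-evm models were of like length to the others, with a median of 1302 bases against 1567.5 bases for evm models. Beside those already given, the most abundant non-evm models of the lower set were a model of 2011 bases with 1595, 1567 and 1651 CPM at 0 h and 620.1, 565 and 672 CPM at 5 h and a model of 1069 bases with 1087, 1073 and 1036 CPM at 0 h and 358, 393 and 279 CPM at 5 h. Of the same level was a model of 1343 bases, which had 1038, 1119 and 1038 CPM at 0 h and 496, 513 and 469 CPM at 5 h, 2.16-fold lower. Those of the higher set were all long, from 4628 to 14193 bases. Among them, a model of 4628 bases was 2.58-fold higher, with 455, 449.7 and 435 CPM at 0 h and 1161, 1091 and 1204 CPM at 5 h. A non-evm model of 4742 bases had 404, 399 and 392 CPM at 0 h and 841, 1062 and 545 CPM at 5 h and belonged to those of wide spread.

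Some models lay close to the limits. Just inside the ratio limit were evm.TU.ctg298.9, 2.01-fold higher, and evm.TU.ctg369.1, 2.01-fold lower. In the first, the ArR_5h libraries ran from 153 to 264 CPM, around a mean just over the limit. Just outside were evm.TU.ctg100.9 (227, 209 and 212 CPM at 0 h and 113, 135 and 76.4 CPM at 5 h) and evm.TU.ctg396.30 (1115, 1121 and 1078 CPM at 0 h and 574, 639.96 and 445 CPM at 5 h), each a little under 2-fold lower. Just inside the level limit were evm.TU.ctg132.12 with a mean of 203 CPM at 0 h and evm.TU.ctg395.9 with 204 CPM at 5 h. Just outside were evm.TU.ctg393.5 with 199.7 CPM at 0 h and evm.TU.ctg58.29 with 199 CPM at 5 h.

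Members outside the rule for named models were 20 evm or joined models and 22 non-evm models of the lower set and 20 and 4 of the higher set. The 20 evm or joined models of the lower set had 211.04 to 665 mean CPM at 0 h and were 2.05-fold to 3.01-fold lower, and their lengths ran from 258 to 4371 bases. The 20 of the higher set had 209 to 559.5 mean CPM at 5 h and were 2.01-fold to 2.66-fold higher, with lengths from 1119 to 11475 bases. The 22 non-evm models of the lower set had 211.03 to 2609 mean CPM at 0 h and were 2.10-fold to 5.23-fold lower. Of the first of these groups, evm.TU.ctg990.3 was given above.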

How the data were processed

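RNA of whole cysts was sequenced as paired-end reads of 150 bp. The authors aligned the reads to the Artemia franciscana genome, which is that of another species of the genus. The submitters' processing notes name HISAT2 2.0.5 and featureCounts 1.5.0-p3. No source used here gives the strand setting, and the library kit does not mark strand, so overlapping and antisense models cannot be told apart. The deposited table holds raw counts and FPKM values per model and library, both made by the authors. All columns with values were assigned to a library.

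CPM was computed from the deposited counts and the column totals. Model lengths were worked out from count and FPKM, with the divisor of each library chosen so that lengths came out whole. The length used was the rounded median over libraries. In 100% of 14844 models, the library closest to it lay within 0.05 bases, which is a loose check. Members and lists were chosen with earlier results of these data known. The named models carry an evm.TU identifier and are the 10 highest in level and in ratio in each direction, the 5 of widest spread at 5 h, 2 on each side of each limit, and members that share a contig or that the study names or annotates. Others named were picked after their values were seen, among them the neighbours on contigs and the non-evm models given by length. Groups of terms were formed by words in the study's annotation, whose table was read only in part. Lists that need gene names, such as heat shock proteins, could not be formed.

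The edgeR 4.0.16 quasi-likelihood test (R 4.3.3, TMM factors, filterByExpr with a minimum count of 10 and a minimum total of 15, Benjamini-Hochberg adjustment) was run on 11959 models after being tested on simulated data. The study calls the replicates biological and takes all groups from a single batch of cysts. No source used here says that replicates were incubated separately, so p-values measure only the spread between these libraries, which may be technical. Alternatives were other scaling, filters and limits, DESeq2 1.42.0, a replicate block and leaving out each library. An FPKM limit, evm models alone, the class of wide spread and leaving out the most abundant model were chosen after seeing the data.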

Additional observations from a re-analysis of the deposited data

How the results depend on the processing

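The number of changing abundant models followed the limits chosen. It was 282 (130 higher, 152 lower) at 100 CPM, 47 (22 and 25) at 400 CPM, 300 (146 and 154) at a ratio of 1.5 and 22 (3 and 19) at a ratio of 3. With 100 FPKM in place of 200 CPM, chosen after seeing the data, 33 higher models were found and their median length was 1930 bases. Dropping the demand for separate libraries added no model. Leaving out each replicate gave 118 to 134 models, 47 to 62 higher and 60 to 87 lower, with 62 higher and 60 lower without ArR_5h replicate 3 and 47 and 87 without ArR_5h replicate 2. With TMM factors, 118 models (45 and 73) met the rule, 112 of the 120 among them. The ratio of the summed share of the higher set was 2.33 with TMM factors and 2.42 without its most abundant model, and 2.36 to 2.39 when each replicate was left out. For the lower set it was 0.342 to 0.379. With TMM factors, ArR_5h replicate 3 was the lowest library in 18 models of the higher set. The 58 models named by the rule kept their direction in all 580 alternative values, with shifts of at most 0.39 on the log2 scale. They had been chosen with groups that did not overlap and ratios near or over 2. A reversal was therefore hardly possible, and the kept direction is no test of them.

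The count of all models called by edgeR, 2984, was 2980 to 3194 when each replicate was left out, and 112 of the 120 models called became 110 to 116. DESeq2 called 2933 and 115. A replicate block gave 3006 called models and again 112 of the 120. The deviations of equally numbered libraries correlated at 0.013, 0.015 and 0.064, so the replicate numbers were not used as pairs. The lowest count of a changing model in a library was 181, and counting error limits the scarcest values, such as those of evm.TU.ctg397.23 at 0 h, most.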

Other observations

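The 94 evm and joined models lay on 89 contigs, and 5 contigs held a pair of them, each pair in the same direction. How often other abundant models share a contig or a direction was not counted, so nothing is read from these pairs. The neighbours evm.TU.ctg25.48 and evm.TU.ctg25.49 were 2.71-fold and 2.76-fold lower. They differed at 5 h, where the first had 181, 281 and 119 CPM and the second 114, 125 and 102 CPM. Likewise evm.TU.ctg397.23, with the largest increase, was near evm.TU.ctg397.21, 2.31-fold higher, and evm.TU.ctg397.29 missed the ratio limit at 116 and 224 CPM. Higher in turn were evm.TU.ctg1345.2 and evm.TU.ctg1345.4, 2.80-fold and 2.25-fold, with evm.TU.ctg1345.3 between them at 90.4 and 130.1 CPM. The other pairs, evm.TU.ctg49.19 with evm.TU.ctg49.27 and evm.TU.ctg30.67 with evm.TU.ctg30.24, were lower and have numbers farther apart. A model of the lower set, evm.TU.ctg396.29 (2.89-fold lower), had the neighbours evm.TU.ctg396.30, just under the ratio limit, and evm.TU.ctg396.32, which went from 114 to 51.8 CPM. The annotated evm.TU.ctg138.16 has the number next to that of evm.TU.ctg138.17, the second most abundant model at 0 h, with 15768 ± 216 and 21191 ± 2487 CPM. Positions of the models were not used here, and reads shared by neighbours were not separated.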
